A study of Mus musculus with 15 samples.

Results

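Histones are the proteins around which DNA is wound. Core histones H2A, H2B, H3 and H4 form the nucleosome, and linker histone H1 binds where DNA enters and leaves it. Most histone genes sit in clusters, are read mainly while a cell copies its DNA, and give mRNAs that end in a stem-loop in place of a poly(A) tail. Some of them also give polyadenylated transcripts in cells that have stopped dividing, and a few H1, H2A and H2B genes are known from germ cells.

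Of 19500 mouse genes with a probe set of their own on the array, 29 were histone genes. They were chosen by symbol alone, as every gene whose older name starts with Hist1h to Hist4h or whose current name is H1f, H2ac, H2bc, H3c or H4c with a number. They comprise 8 H1 genes (H1f1, H1f2, H1f3, H1f5, H1f6, H1f7, H1f8 and H1f10), 4 H2A genes (H2ac1, H2ac4, H2ac8 and H2ac15), 9 H2B genes (H2bc1, H2bc3, H2bc4, H2bc8, H2bc9, H2bc14, H2bc18, H2bc21 and H2bc22), 2 H3 genes (H3c7 and H3c15) and 6 H4 genes (H4c3, H4c4, H4c6, H4c8, H4c9 and H4c14). Each has 1 probe set. Of the 29 genes, 22 lie on chromosome 13, 4 on chromosome 3, 2 on chromosome 6 and 1 on chromosome 15. Other mouse histone genes, among them those whose probe sets carry several symbols, were not analysed here.

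All samples came from mice with the Tg(Pcp2-L10a-Egfp) transgene, in which the Pcp2 promoter, active in Purkinje cells of the cerebellum, drives a ribosomal protein fused to green fluorescent protein. In translating ribosome affinity purification (TRAP), tagged ribosomes are pulled from a homogenate with antibodies, and their RNA is measured. Cerebella were pooled at postnatal day 0 (P0), P7, P15, P21 and P56, and 3 Affymetrix arrays were made for each age, 15 in all. No array of unpurified cerebellum or of mice without the transgene was used here, so enrichment over whole tissue is not measured.

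Values are the deposited log2 signals, and a change of 1 is a 2-fold change. They ran from 3.15 to 14.08, and the lower quartile of an array lay between 5.86 and 6.01. Replicate arrays correlated at 0.994 or more over all probe sets, which are not independent replicates. Of 10 Purkinje cell markers 8 were measured, and their mean log2 signal was 8.71 ± 0.02 at P0 and 13.19 to 13.42 at the 4 later ages (SD, n = 3 arrays). Pcp2, the gene whose promoter drives the tag, had means of 8.53 ± 0.07 at P0, 13.16 ± 0.01 at P7, 13.22 ± 0.02 at P15, 13.22 ± 0.04 at P21 and 13.71 ± 0.04 at P56. Ppp1r17, another Purkinje cell marker, was below the lower quartile at P0 (5.06 ± 0.12) and at 12.99 ± 0.01 at P7. The P0 arrays thus stood apart from all later arrays in the signals of markers of the cell type they were meant to capture. Markers of other cells were measured on all arrays and moved with age, and values of several of their lists stand beside the results below. In such bulk RNA, fewer cells of a type and less RNA per cell cannot be told apart. Signals of different probe sets are not on a common scale, and levels are compared only within a gene. H4 genes encode the same protein from very similar coding sequences, and genes of the other classes are also alike, so a short probe may read related transcripts. The probe sequences were not used here.

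The promoters of 25 of the 29 genes were found in the RefSeq table (build GRCm38.p6), as windows of 300 bases from 250 before the gene's start to 50 after it. H2bc4, H2bc21, H3c7 and H4c14 were not matched. The 7 windows shown here, cut to 280 bases, belong to genes that carry the results below: H4c3 and H4c8, which had the highest changes by P56, H4c4, whose measured change was the smallest of its class at signals near the top of the scale, the linker histone genes H1f1 and H1f2, which moved in opposite directions, and H2bc8 and H2ac4, which differed in time course. Capitals mark 5 motifs searched on both strands: the octamer ATTTGCAT known from H2B promoters, the H1 box AAACACA, the H4 promoter element GGTCCG (picked after these sequences had been read), the CCAAT box and the TATA box TATAAA. Each is written 5′ to 3′ on the gene's strand.
H4c3 (chr13:23698429-23698708, minus strand): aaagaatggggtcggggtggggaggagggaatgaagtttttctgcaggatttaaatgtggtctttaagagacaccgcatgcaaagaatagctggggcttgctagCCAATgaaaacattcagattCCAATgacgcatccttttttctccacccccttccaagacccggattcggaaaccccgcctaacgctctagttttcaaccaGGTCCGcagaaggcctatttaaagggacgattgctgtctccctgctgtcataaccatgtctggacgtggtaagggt
H4c8 (chr13:23530794-23531073, plus strand): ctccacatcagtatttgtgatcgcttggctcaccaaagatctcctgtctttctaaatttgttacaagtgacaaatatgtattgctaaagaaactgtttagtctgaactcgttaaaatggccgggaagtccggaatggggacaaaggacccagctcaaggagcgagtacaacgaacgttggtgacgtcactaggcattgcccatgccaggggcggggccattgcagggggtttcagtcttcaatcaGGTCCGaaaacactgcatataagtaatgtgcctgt
H4c4 (chr13:23581318-23581597, plus strand): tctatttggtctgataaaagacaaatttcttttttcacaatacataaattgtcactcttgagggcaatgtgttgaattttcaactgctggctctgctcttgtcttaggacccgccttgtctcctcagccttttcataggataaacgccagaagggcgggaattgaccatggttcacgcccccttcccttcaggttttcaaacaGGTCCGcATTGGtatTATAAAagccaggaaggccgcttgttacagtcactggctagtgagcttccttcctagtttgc
H1f1 (chr13:23763418-23763697, plus strand): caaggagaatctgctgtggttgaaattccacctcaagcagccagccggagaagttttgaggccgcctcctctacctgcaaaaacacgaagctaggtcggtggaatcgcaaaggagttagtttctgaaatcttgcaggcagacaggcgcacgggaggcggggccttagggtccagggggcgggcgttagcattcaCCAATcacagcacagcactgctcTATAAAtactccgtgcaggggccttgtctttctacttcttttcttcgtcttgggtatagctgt
H1f2 (chr13:23738557-23738836, plus strand): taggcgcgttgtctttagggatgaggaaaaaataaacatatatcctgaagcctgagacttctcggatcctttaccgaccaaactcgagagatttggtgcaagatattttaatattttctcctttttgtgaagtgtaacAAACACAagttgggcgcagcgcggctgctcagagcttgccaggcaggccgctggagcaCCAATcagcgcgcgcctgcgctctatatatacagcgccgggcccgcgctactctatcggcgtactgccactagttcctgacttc
H2bc8 (chr13:23571150-23571429, plus strand): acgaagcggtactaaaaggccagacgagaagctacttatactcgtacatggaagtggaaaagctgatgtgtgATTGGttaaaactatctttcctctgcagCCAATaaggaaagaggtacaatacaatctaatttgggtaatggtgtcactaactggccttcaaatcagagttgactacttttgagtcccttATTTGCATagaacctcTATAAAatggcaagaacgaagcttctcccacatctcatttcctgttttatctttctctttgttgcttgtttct
H2ac4 (chr13:23750838-23751117, plus strand): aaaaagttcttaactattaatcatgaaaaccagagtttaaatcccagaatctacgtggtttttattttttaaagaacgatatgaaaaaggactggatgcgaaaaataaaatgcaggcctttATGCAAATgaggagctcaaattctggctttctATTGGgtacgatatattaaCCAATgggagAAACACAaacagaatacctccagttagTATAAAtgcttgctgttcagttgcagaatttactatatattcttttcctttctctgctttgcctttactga
The classes differed in the letters they held. GGTCCG stood in the windows of 5 of 5 H4 genes, in those of H1f10 and H2bc9, and in 8.25% of all 32851 promoter windows in the table. It was picked after the printed windows had been read, so its presence in H4c3, H4c4 and H4c8 is no separate support. The octamer stood in 5 of 7 H2B and 3 of 4 H2A windows, in no H1, H3 or H4 window, and in 1.74% of all windows. AAACACA was found in 4 of 8 H1 windows, in 2 H2A and 2 H2B windows, and in 7.18% of all. CCAAT occurred in 20 of the 25 windows (37.4% of all) and TATAAA in 14 (13.6% of all). Not all of these windows are separate DNA: those of H2ac8 and H2bc8 share 279 bases, and those of H2ac1 and H2bc1 share 220. All of these genes are among those with the octamer, and a match in shared bases counts in both windows. A match describes the letters in the window and shows no binding.

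All 29 histone genes differed between some ages, with an adjusted p under 0.05 in limma's F-test over the 5 ages, as did 81.6% of all 22092 probe sets. Their time courses were not alike. The mean signal was highest at P56 for 14 genes, at P7 for 8, at P21 for 3, and at P0 and at P15 for 2 each. It was lowest at P0 for 18 genes, at P21 for 6, at P56 for 4 and at P15 for 1. These counts use the means alone, and some highest ages were near ties. H1f6 had means of 5.89 at P56 and 5.88 at P7, and H2ac4 of 6.44 and 6.40. The same counts were not made over all probe sets, so no baseline stands beside them. H1f3, H2ac8 and H3c7 were below their arrays' lower quartile on every array, and are not shown to be above background at any age. H1f6, H1f8, H2ac4, H2bc21, H3c15 and H4c8 were below it on all arrays of at least 1 age, and the other 20 genes were not.

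**Figure D1:**
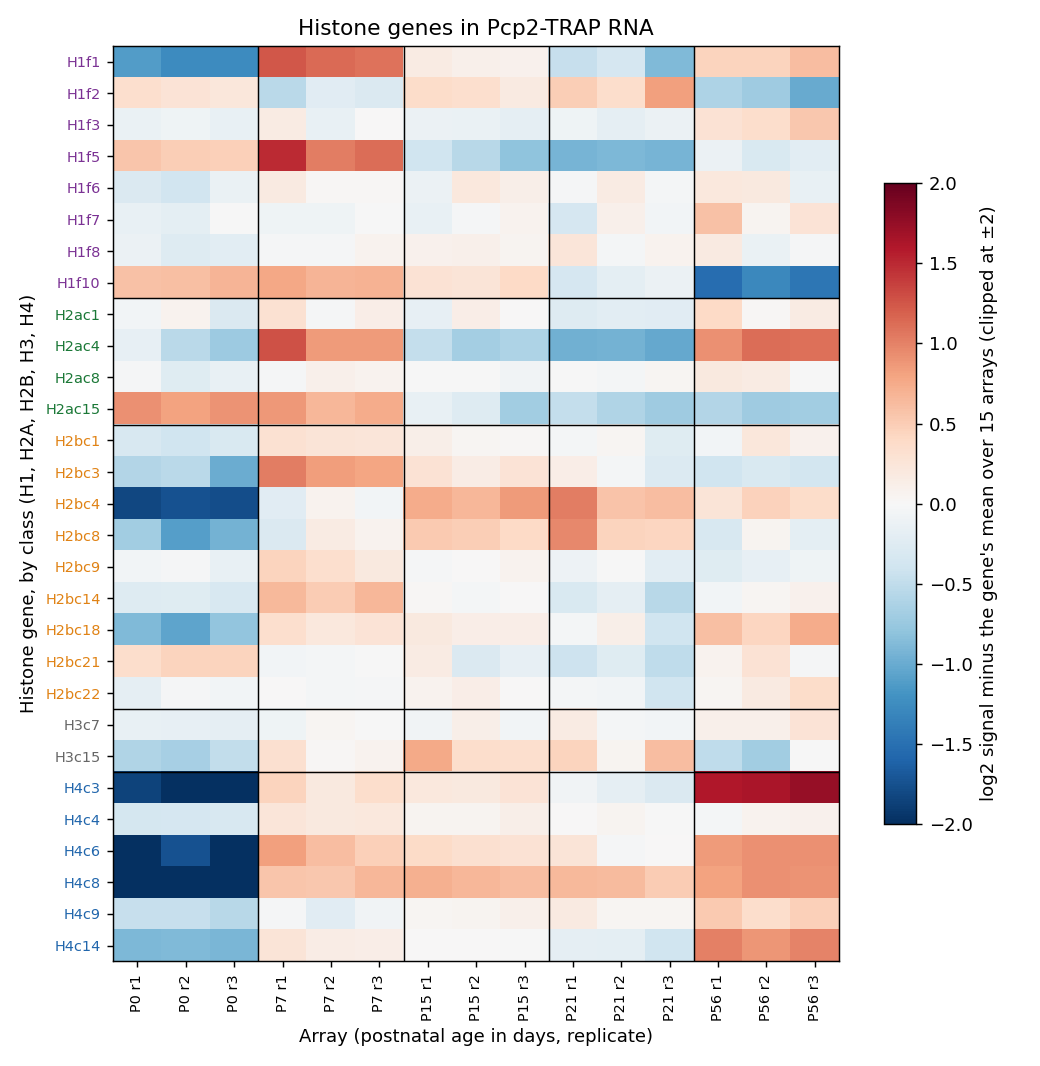
Log2 signal of the 29 histone genes (down the page, grouped by class) on the 15 arrays (across, by postnatal age in days), as the difference from each gene's mean over the arrays, clipped at 2 either way. Blue is below and red above that mean. H4c3, H4c6 and H4c8 are below their means on all P0 arrays, and H1f10 and H2ac15 are above theirs at P0 and P7.

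At P56, set against P0, 22 of the 29 histone genes were higher, 5 were lower and 2 did not pass the test. Over all probe sets, 40.1% were called higher and 35.3% lower at an adjusted p under 0.05 in limma. The median log2 change was 0.35 over the 29 genes and 0.08 over all probe sets. By at least 1 on the log2 scale, 8 histone genes rose (11.0% of all probe sets did) and 3 fell (16.0% of all). All 6 H4 genes rose, with a median of 2.35, and the falls lay in H1 (H1f10, H1f2 and H1f5), H2A (H2ac15) and H2B (H2bc21). The array medians were lower by 0.32 at P56 than at P0. With every array's median set to 0 the median change became 0.67 for the histone genes and 0.41 for all probe sets. On that scale 24 histone genes were higher and 4 lower, beside 13631 and 5800 of all 22092 probe sets. All changes below are on the deposited scale.

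The H4 genes, which all encode the same core histone, held the largest rises. H4c3 had log2 signals of 7.81, 7.55 and 7.51 at P0, of 10.10, 9.85 and 10.01 at P7, of 9.88, 9.85 and 9.93 at P15, of 9.60, 9.48 and 9.37 at P21, and of 11.27, 11.29 and 11.39 at P56. The P56 arrays were above every other array and the P0 arrays below every other. H4c3 was 3.70 higher at P56 than at P0 (SE 0.09, adjusted p = 3.07e-16, 13.0-fold). H4c8 gave 5.89, 5.60 and 5.70 at P0, then 9.00, 8.99 and 9.12 at P7, 9.16, 9.12 and 9.06 at P15, 9.09, 9.08 and 8.96 at P21, and 9.26, 9.36 and 9.35 at P56. Nearly all of its difference lay between P0 and P7, and its P0 signals were below the arrays' lower quartile, so its change of 3.59 (SE 0.08, adjusted p = 8.37e-17, 12.0-fold) starts at a signal that may be background. H4c6 had 9.24, 9.51 and 9.19 at P0, 12.08, 11.87 and 11.73 at P7, 11.64, 11.58 and 11.54 at P15, 11.52, 11.24 and 11.27 at P21, and 12.12, 12.16 and 12.17 at P56. Its P56 and P0 arrays were 2.84 apart (SE 0.10, adjusted p = 3.83e-14), and its P56 arrays were also above all P7 arrays.

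H4c14, the H4 gene on chromosome 3, had 13.02, 12.90 and 13.01 at P56, against 11.12, 11.14 and 11.09 at P0. It rose by 1.86 (SE 0.07, adjusted p = 8.81e-14), with no overlap of arrays. H4c9 rose by 0.94 (SE 0.07, adjusted p = 1.81e-09), its means being 7.70 ± 0.09 at P56 and 6.76 ± 0.06 at P0. H4c4 had 13.24, 13.36 and 13.37 at P56, against 12.93, 12.95 and 12.96 at P0, a rise of 0.38 (SE 0.06, adjusted p = 1.81e-05). The highest signal of any probe set on an array was 13.71 to 14.08, so H4c4 was read near the top of the scale at all ages, where a change may be understated. The changes of the 6 H4 probe sets thus ran from 0.38 to 3.70, many times their standard errors of 0.06 to 0.10. H4c3, H4c4 and H4c8, whose promoters are printed above, all held GGTCCG, which was picked after those promoters had been read. CCAAT stood in H4c3 and H4c4, and TATAAA in H4c4.

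**Figure D2:**
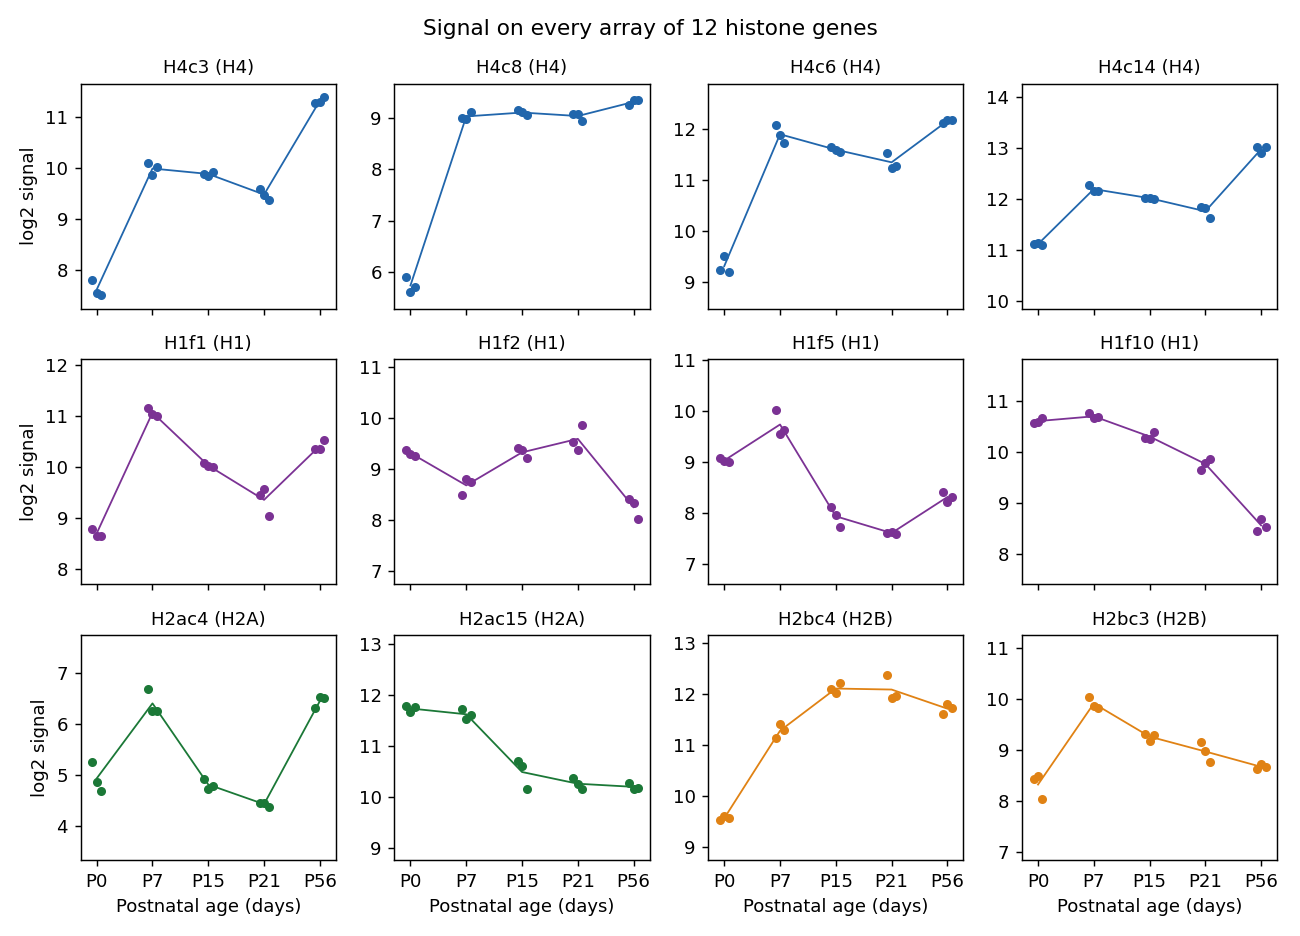
Log2 signal on each array (points) and the mean per age (line) of 12 histone genes at 5 postnatal ages, with axes of equal height. H4c3 and H2ac4 are higher at P56 than at P21 by 1.84 and 2.02, H1f5 peaks at P7, and H1f10 has its lowest arrays at P56.

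The linker histone genes split. H1f1, a linker histone of the chromosome 13 cluster, had 8.80, 8.66 and 8.66 at P0, 11.16, 11.04 and 11.00 at P7, 10.08, 10.02 and 10.00 at P15, 9.46, 9.58 and 9.04 at P21, and 10.36, 10.35 and 10.53 at P56. The P7 arrays were the highest and the P0 arrays the lowest, and at P56 it stood 1.71 above P0 (SE 0.11, adjusted p = 9.64e-11, 3.28-fold). H1f10, a linker histone gene outside the clusters, had 8.47, 8.70 and 8.54 at P56, against 10.57, 10.58 and 10.66 at P0. It fell by 2.04 (SE 0.08, adjusted p = 9.65e-14), to 8.57 ± 0.12 at P56, through means of 10.70 at P7, 10.30 at P15 and 9.77 at P21. H1f2 had 8.42, 8.33 and 8.03 at P56, against 9.38, 9.31 and 9.27 at P0, and fell by 1.06 (SE 0.12, adjusted p = 3.58e-07). H1f5 had 8.40, 8.22 and 8.31 at P56, against 9.07, 9.01 and 9.00 at P0, and fell by 0.72 (SE 0.11, adjusted p = 1.19e-05). For H1f10, H1f2 and H1f5 every P56 array was below every P0 array. H1f3 (0.52), H1f7 (0.42), H1f6 (0.35) and H1f8 (0.21) passed the test by small amounts, H1f3 at signals below the lower quartile, and the arrays of the ages overlapped for H1f6 and H1f8. H1f6 is known from testis, H1f7 from spermatids and H1f8 from oocytes.

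Among the H2A and H2B genes, which encode the partners of the H2A-H2B dimer, the largest rise was that of H2bc4. It had 11.60, 11.81 and 11.72 at P56, against 9.53, 9.60 and 9.57 at P0 (change 2.14, SE 0.11, adjusted p = 3.68e-12, 4.42-fold). H2bc18, on chromosome 3, had 9.19, 9.01 and 9.33 at P56, against 7.71, 7.53 and 7.80 at P0 (change 1.50, SE 0.11, adjusted p = 1.35e-09). Neither gene's arrays overlapped. H2ac4 had 6.31, 6.52 and 6.50 at P56, against 5.25, 4.87 and 4.68 at P0, where it was below the lower quartile (change 1.51, SE 0.13, adjusted p = 7.32e-09). H2ac15 had the reverse pattern, with 10.27, 10.15 and 10.17 at P56, against 11.78, 11.66 and 11.76 at P0, and fell by 1.53 (SE 0.11, adjusted p = 7.37e-10). H2bc8 had 7.34, 7.72 and 7.47 at P56, against 6.97, 6.56 and 6.72 at P0, and rose by 0.76 (SE 0.15, adjusted p = 1.81e-04). The testis H2A and H2B genes H2ac1 and H2bc1 rose by 0.29 and 0.43, H2bc3 by 0.35, H2bc14 by 0.29, H2bc22 by 0.28 and H2ac8, below the lower quartile, by 0.26. H2bc21 was lower by 0.30 (adjusted p = 0.0157) as deposited and 0.02 higher with the array medians at 0. H2bc9 had a change of -0.08 (adjusted p = 0.356), which became 0.24 with the medians at 0 (adjusted p = 0.0109). With quantile normalization 19 of the 29 genes were higher and 4 lower, beside 8751 and 7479 of all 22092 probe sets. On that scale 4 small changes were not called: H1f8 (0.15, adjusted p = 0.166), H2ac8 (0.08, adjusted p = 0.319), H3c7 (0.13, adjusted p = 0.153) and H2bc21 (-0.25, adjusted p = 0.0562).

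The H3 genes were dim. H3c7 rose by 0.32 (SE 0.08, adjusted p = 0.00123) at signals between 3.89 and 4.33, all below the lower quartile. H3c15 had 4.93, 4.74 and 5.42 at P56, against 4.82, 4.76 and 4.93 at P0, and these overlapped (change 0.19, adjusted p = 0.303, and -0.01 without P56 replicate 3). Some of the smaller calls of this comparison rested on 1 array. With an array left out, the limma adjusted p of H1f8 was 0.0827 to 0.197 without replicate 2 or 3 of P0 or replicate 1 of P56. For H2ac1 it was 0.15 and 0.153 without P0 replicate 3 or P56 replicate 1. H2bc3 reached 0.0882 without P0 replicate 3, H2bc21 reached 0.0729 without P56 replicate 3, and H2bc22 reached 0.0603 and 0.0831 without P0 replicate 1 or P56 replicate 3.

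Other cell types' markers moved over the same ages. All 8 Purkinje cell markers were higher at P56 than at P0. All 8 endothelial and mural cell markers were lower, with summed log2 levels of 9.57 to 9.85 at P56 and 12.35 to 12.44 at P0, and so were all 6 microglial markers, with 9.31 to 9.43 at P56 and 11.44 to 11.55 at P0. Of 10 markers of cycling granule cell progenitors, 9 were lower, with 11.06 to 11.15 at P56 and 12.74 to 12.77 at P0. All 6 oligodendrocyte precursor markers were lower, with 10.61 to 10.71 at P56 and 12.07 to 12.08 at P0, and 4 of 5 markers of mature oligodendrocytes were higher, with 11.66 to 11.79 at P56 and 9.99 to 10.16 at P0. Of 6 markers of astrocytes and Bergmann glia, 4 were lower and 2 higher, with 12.50 to 12.65 at P56 and 14.52 to 14.60 at P0. On all P56 arrays, 2 of the 8 endothelial markers, 1 of the 10 progenitor markers and 0 of the 6 microglial markers were below the lower quartile. That quartile is not a measured background, so signals above it are not shown to be above background. The part of these cell types in the histone changes was not tested.

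**Figure D3:**
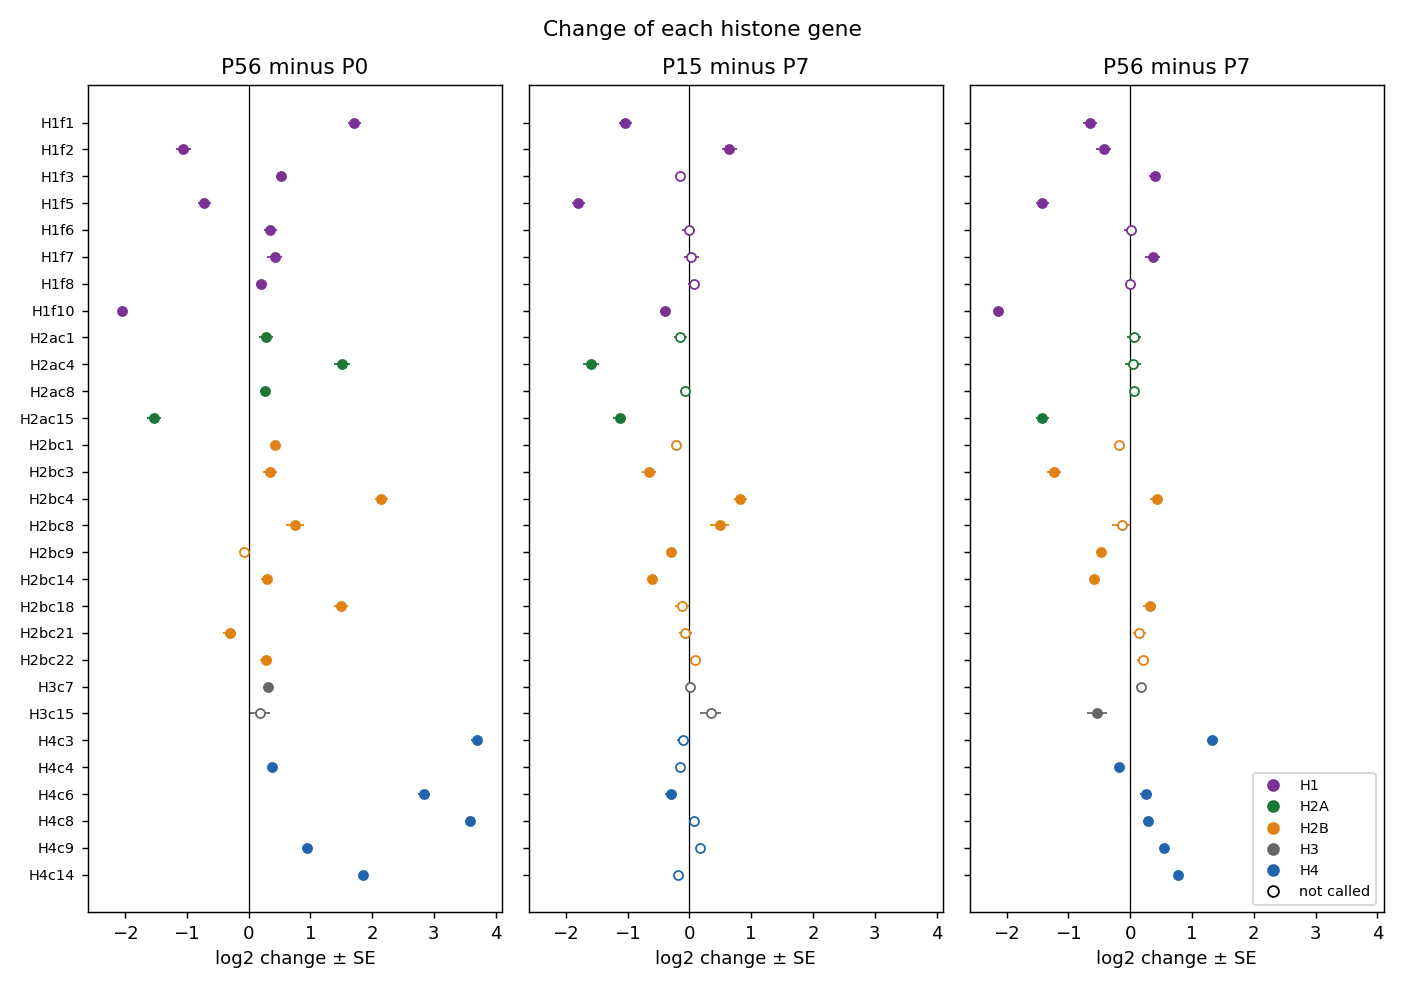
Log2 change ± SE of each histone gene (down the page, coloured by class) at P56 against P0, at P15 against P7 and at P56 against P7, with open points for changes that did not pass limma's test. All 6 H4 genes are right of 0 at P56 against P0, H1f5 and H2ac4 have the largest falls at P15 (-1.80 and -1.59), and at P56 against P7 rises and falls are mixed.

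Many of the rises were already there at P7, but not all. H4c9 was higher than at P0 by 0.39 at P7 and by 0.94 at P56. H1f3, H1f7, H2ac1, H2bc22 and H3c7 were called higher at P56 but were not called at P7. Against P0, 20 of the 29 genes were higher at P7 and 2 were lower, while 33.6% of all probe sets were called higher and 28.5% lower. The median change was 0.56 over the histone genes and 0.05 over all probe sets, and 9 histone genes rose by at least 1 (10.5% of all) while 0 fell by as much (9.25% of all). All 6 H4 genes rose, by a median of 1.72. H4c8 rose by 3.31 (SE 0.08, adjusted p = 5.78e-16), H4c6 by 2.58 (SE 0.10, adjusted p = 2.64e-13) and H4c3 by 2.37 (SE 0.09, adjusted p = 1.64e-13). H1f1 rose by 2.36, H2bc4 by 1.71, H2bc3 by 1.59, H2ac4 by 1.47, H2bc18 by 1.18 and H4c14 by 1.08, and no P7 array of these genes overlapped a P0 array. H1f2 had 8.49, 8.81 and 8.75 at P7, against 9.38, 9.31 and 9.27 at P0, and fell by 0.63 (SE 0.12, adjusted p = 1.67e-04). H2bc21 fell by 0.45 (SE 0.10, adjusted p = 0.00114). It had 6.05, 6.07 and 6.09 at P7, against 6.46, 6.55 and 6.54 at P0, near the lower quartile. H1f10 and H2ac15, which fell by P56, had changes of 0.09 and -0.11 at P7 that did not pass the test.

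The P7 and P56 comparisons share the P0 arrays, so their values are given side by side only. The call of H1f6 at P7 ended without P0 replicate 2 (adjusted p = 0.0505). That of H2ac8 ended without P0 replicate 2 or 3 or P7 replicate 2 or 3 (0.0625 to 0.132), and that of H1f8 in 8 of the 15 fits that left an array out (0.051 to 0.142), namely those without P0 replicate 2 or 3 or any P7 or P15 array. Over the same week all 8 Purkinje cell markers rose, by a median of 4.19, and their summed log2 level was 16.19 to 16.23 at P7 and 12.59 to 12.68 at P0. All 8 endothelial and all 6 microglial markers fell, as did 5 of 6 markers of oligodendrocyte precursors. All 5 markers of mature oligodendrocytes rose by at least 1, by a median of 2.57, with summed log2 levels of 12.06 to 12.26 at P7 and 9.99 to 10.16 at P0. The progenitor list was at 12.75 to 12.83 at P7 and 12.74 to 12.77 at P0. The part of these shifts in the histone rises was not tested.

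From P7 to P15, the histone genes parted. Against P7, 9 genes were lower at P15 and 3 were higher, while 13.6% of all probe sets were called lower and 10.4% higher, and 17 genes did not pass the test. The median change was -0.12 over the histone genes and 0.01 over all probe sets. By at least 1 on the log2 scale 4 histone genes fell, as did 0.733% of all probe sets, and none rose (0.0724% of all). With the array medians at 0 there were 8 lower and 4 higher, beside 2178 and 3583 of all 22092 probe sets.

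H1f5, a linker histone gene, had 8.12, 7.97 and 7.72 at P15, against 10.01, 9.55 and 9.63 at P7, and fell by 1.80 (SE 0.11, adjusted p = 5.58e-09). H2ac4 had 4.93, 4.72 and 4.78 at P15, against 6.68, 6.26 and 6.26 at P7, and fell by 1.59 (SE 0.13, adjusted p = 1.62e-07), to below the lower quartile. H2ac15 had 10.71, 10.60 and 10.16 at P15, against 11.72, 11.53 and 11.61 at P7, and fell by 1.13 (SE 0.11, adjusted p = 1.43e-06). None of their arrays overlapped. H1f1 fell by 1.04, H2bc3 by 0.65, H2bc14 by 0.61, H1f10 by 0.40, H2bc9 by 0.30 and H4c6 by 0.30. The call of H4c6 (adjusted p = 0.0353) ended without any P15 array or without P7 replicate 1 or 2 (0.0558 to 0.202), and that of H2bc9 without P7 replicate 1 (0.0573). On the deposited scale H4c6 was the 1 H4 gene called, and H4c3, H4c4, H4c8, H4c9 and H4c14 had changes of -0.11, -0.15, 0.08, 0.17 and -0.18. Which H4 genes passed depended on the scale. With the medians at 0, H4c9 was called higher (0.24, adjusted p = 0.0271) and H4c6 was not called (adjusted p = 0.111). With quantile normalization H4c4 (-0.24, adjusted p = 0.00846) and H4c14 (-0.22, adjusted p = 0.021) were called lower beside H4c6.

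The 3 genes that rose were H2bc4, H1f2 and H2bc8. H2bc4 had 12.09, 12.02 and 12.21 at P15, against 11.13, 11.42 and 11.29 at P7 (change 0.83, SE 0.11, adjusted p = 2.62e-05). H1f2 had 9.41, 9.37 and 9.21 at P15, against 8.49, 8.81 and 8.75 at P7 (change 0.65, SE 0.12, adjusted p = 7.71e-04). H2bc8 had 8.19, 8.16 and 8.06 at P15, against 7.37, 7.83 and 7.73 at P7, and rose by 0.49 (SE 0.15, adjusted p = 0.0223), a call that ended without P7 replicate 1, P15 replicate 1 or P15 replicate 2 (0.0593 to 0.137). Of the 20 genes that were higher at P7 than at P0, 7 were lower again at P15 (H1f1, H1f5, H2ac4, H2bc3, H2bc9, H2bc14 and H4c6), 2 were higher still (H2bc4 and H2bc8) and 11 were not called. These comparisons share the P7 arrays, so an error in those arrays enters both with opposite sign. Such pairs of calls were not counted over all probe sets.

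Markers of granule cell progenitors fell over the same days. Of the 10 progenitor markers 8 were lower at P15, with summed log2 levels of 11.60 to 11.71 at P15 and 12.75 to 12.83 at P7. Atoh1, the transcription factor that marks granule cell progenitors, had means of 6.46 ± 0.14 at P15 and 8.11 ± 0.10 at P7. Of the 8 Purkinje cell markers 1 was called, and their summed level was 16.29 to 16.37 at P15 and 16.19 to 16.23 at P7. All 5 markers of mature oligodendrocytes were higher, at 12.81 to 12.85 at P15 and 12.06 to 12.26 at P7. The part of these shifts in the changes of the histone genes was not tested.

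Between P15 and P21 the genes moved little. At P21, 7 of the 29 were lower than at P15 and 0 were higher, while 7.16% of all probe sets were called lower and 10.5% higher, and no histone gene moved by 1 (0.321% of all rose and 0.0770% fell by as much). At an unadjusted p under 0.05 the counts were 12 lower and 1 higher, beside 2909 lower and 3482 higher of all 22092 probe sets. H1f1 fell by 0.67 (SE 0.11, adjusted p = 3.19e-04), H1f10 by 0.54 (SE 0.08, adjusted p = 1.25e-04) and H4c3 by 0.40 (SE 0.09, adjusted p = 0.00395). H1f10 had 9.65, 9.79 and 9.87 at P21, against 10.27, 10.25 and 10.39 at P15. H1f1 had 9.46, 9.58 and 9.04 at P21, all below its P15 arrays, and P21 replicate 3 was the lowest of them. Without that array the count of lower genes was 4. The calls of H2ac4 (-0.38) and H1f5 (-0.33) were the least firm. H1f5 kept its call only without P7 replicate 1 or 2, P15 replicate 3 or P56 replicate 1 or 2, and H2ac4 only without P0 replicate 1 or 3, P7 replicate 1 or P56 replicate 1. Their adjusted p reached 0.209 and 0.169. H4c14 (-0.26) lost its call without P21 replicate 3 (0.0855), and H2bc14 fell by 0.35. Of the 10 progenitor markers 6 were lower and 0 higher at P21, by a median of -0.36 over the list, with summed log2 levels of 11.28 to 11.36 at P21 and 11.60 to 11.71 at P15. Of the 6 oligodendrocyte precursor markers 4 were higher, at 11.41 to 11.71 at P21 and 11.18 to 11.23 at P15, and of the 6 microglial markers 3 were higher, at 9.53 to 9.66 at P21 and 9.23 to 9.26 at P15. Of the 8 Purkinje cell markers 1 was lower. The part of these shifts was not tested.

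From P21 to P56 the order turned for many genes. Against P21, 15 genes were higher at P56 and 6 were lower, while 22.1% of all probe sets were called higher and 34.3% lower. The median change was 0.28 over the histone genes and -0.03 over all probe sets. By at least 1, 4 histone genes rose (1.95% of all probe sets) and 2 fell (5.61% of all). With the array medians at 0, 20 histone genes were higher and 4 lower, and the share of higher calls over all probe sets moved from 39.3% as deposited to 69.1%.

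H2ac4 had 6.31, 6.52 and 6.50 at P56, against 4.45, 4.46 and 4.38 at P21, where it was below the lower quartile (change 2.02, SE 0.13, adjusted p = 8.14e-10). H4c3 had 11.27, 11.29 and 11.39 at P56, against 9.60, 9.48 and 9.37 at P21 (change 1.84, SE 0.09, adjusted p = 2.99e-11, 3.57-fold). H4c14 had 13.02, 12.90 and 13.01 at P56, against 11.84, 11.82 and 11.62 at P21 (change 1.22, SE 0.07, adjusted p = 2.17e-10). For these genes no P56 array overlapped a P21 array. H1f1 rose by 1.06, H4c6 by 0.81, H1f5 by 0.70 and H2bc18 by 0.69. Of the H4 genes 5 rose, and H4c4 had a change of 0.02 that was not called (0.26 with the medians at 0, adjusted p = 0.0013).

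The falls were led by linker histone genes. H1f2 had 8.42, 8.33 and 8.03 at P56, against 9.54, 9.38 and 9.86 at P21, and fell by 1.34 (SE 0.12, adjusted p = 5.49e-08). H1f10 had 8.47, 8.70 and 8.54 at P56, against 9.65, 9.79 and 9.87 at P21, and fell by 1.20 (SE 0.08, adjusted p = 8.41e-10). H3c15 had 4.93, 4.74 and 5.42 at P56, all below the lower quartile, against 5.87, 5.48 and 6.05 at P21, and fell by 0.78 (SE 0.16, adjusted p = 6.27e-04), and H2bc8 by 0.77. H2bc4 (-0.37) and H2bc3 (-0.30) were called lower as deposited, and with the medians at 0 their changes were -0.14 and -0.06 (adjusted p = 0.242 and 0.631). H2bc3 also lost its call without P21 replicate 1 or 2 or P56 replicate 1 or 3 (0.0665 to 0.172). H1f7 (0.40) lost its call without P21 replicate 1 or P56 replicate 1 (0.0583 and 0.0611). Of the 9 genes that were lower at P15 than at P7, 5 were higher at P56 than at P21 (H1f1, H1f5, H2ac4, H2bc14 and H4c6), comparisons that share no array. That is near the share of the whole set, in which 15 of 29 genes were higher at P56 than at P21. This pair of calls was not counted over all probe sets. Over this step the 8 Purkinje cell markers held 4 higher and 0 lower, all 6 oligodendrocyte precursor markers were lower, and 4 of 5 markers of mature oligodendrocytes were lower, with summed log2 levels of 11.66 to 11.79 at P56 and 12.90 to 13.14 at P21. Of the 6 astrocyte and Bergmann glia markers 4 were lower and 1 was higher, at 12.50 to 12.65 at P56 and 13.19 to 13.29 at P21. The progenitor list was at 11.06 to 11.15 at P56 and 11.28 to 11.36 at P21. Their part was not tested.

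P56 and P7, both with Purkinje cell markers at high signal, were set against each other. At P56, 9 histone genes were higher than at P7, 10 were lower and 10 did not pass the test, while 25.4% of all probe sets were called higher and 34.2% lower. The median change was 0.05 over the histone genes and 0.00 over all probe sets, and by at least 1, 1 histone gene rose (2.04% of all) and 4 fell (6.84% of all). This split depended on the scale, as did that of all probe sets. With the array medians at 0, 17 histone genes were higher and 7 lower, beside 12284 and 4811 of all 22092 probe sets. With quantile normalization 11 were higher and 9 lower, beside 6399 and 6103 of all. H4 genes again stood on the higher side, with 5 higher and 1 lower. H4c3 was 1.33 higher (SE 0.09, adjusted p = 9.63e-10), H4c14 0.78 higher (SE 0.07, adjusted p = 3.83e-08) and H4c9 0.56 higher (SE 0.07, adjusted p = 3.98e-06). H4c4 was lower by 0.18 as deposited and 0.08 higher with the medians at 0. H1f10 was lower by 2.13, H2ac15 by 1.42, H1f5 by 1.42 and H2bc3 by 1.24, with no overlap of arrays, and these 4 also fell with the medians at 0, by 1.87, 1.16, 1.15 and 0.97. Markers of other cells differed too. Of the 10 progenitor markers 9 were lower at P56 than at P7 and 1 was higher, with 8 lower by at least 1 and a median of -1.48, and their summed log2 levels were 11.06 to 11.15 at P56 and 12.75 to 12.83 at P7. Of the 8 endothelial markers 7 were lower, at 9.57 to 9.85 at P56 and 10.25 to 10.34 at P7, and of the 6 oligodendrocyte precursor markers 5 were lower, at 10.61 to 10.71 at P56 and 11.11 to 11.17 at P7. Of the 6 astrocyte and Bergmann glia markers 4 were lower and 1 was higher, at 12.50 to 12.65 at P56 and 13.82 to 13.86 at P7. Of the 8 Purkinje cell markers 6 were higher and 1 was lower, at 16.48 to 16.49 at P56 and 16.19 to 16.23 at P7. Their part in the histone differences was not tested.

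Of the 22 genes higher at P56 than at P0, 9 were also higher than at P7 (H1f3, H1f7, H2bc4, H2bc18, H4c3, H4c6, H4c8, H4c9 and H4c14), 4 were lower than at P7 (H1f1, H2bc3, H2bc14 and H4c4) and 9 were not called. H1f2, H1f5, H1f10 and H2ac15 were lower at P56 than at both ages. These comparisons share the P56 arrays, and such pairs of calls were not counted over all probe sets. The calls of H4c6 (0.26) and H2bc18 (0.31) at P56 against P7 each ended without P7 replicate 2 or 3 or P56 replicate 3, and also without P56 replicate 2 for H4c6 and P56 replicate 1 for H2bc18. Their adjusted p then lay between 0.0534 and 0.166. H1f7 (0.36) and H4c4 lost theirs without P56 replicate 1 (0.0971 and 0.0532), and H3c15 (-0.54) without P56 replicate 2 (0.0602). The falls of H1f2 (-0.43) and H3c15 were not called with the medians at 0 (adjusted p = 0.214 and 0.13).

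Other genes of the histone pathway were described from 4 lists. The first held replacement variants, most of which are placed into chromatin outside DNA copying. The second held factors that transcribe histone genes or process the 3′ ends of their mRNAs, along with genes of mRNA decay such as Lsm1. The third held histone chaperones, which carry histones to DNA, and the last held genes of DNA replication and the cell cycle. Most genes of the replication and cell cycle list were lower at the last age. At P56 against P0, 35.3% of all probe sets were called lower and 40.1% higher. Of the 32 measured genes of this list, 29 were lower and 1 was higher, with a median change of -1.30. The 1 higher gene, named after its value was seen, was Cdc45 (0.17, adjusted p = 0.0396), and its call ended on leaving out replicate 1 or 2 of P0, 2 or 3 of P7 or 1 or 2 of P56. Ccna2, the cyclin of DNA synthesis and of the entry to mitosis, had means of 6.19 ± 0.19 at P56 and 9.94 ± 0.11 at P0 and fell by 3.75 (SE 0.14, adjusted p = 6.32e-14). Mki67, the gene of the proliferation antigen Ki-67, fell by 3.14 to 6.13 ± 0.13 at P56, against 9.26 ± 0.03 at P0. Plk1 and Cdk1, kinases of mitosis, fell by 2.93 and 2.65.

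Most of these falls came after P7. At P7, against P0, 6 of the 32 genes were higher and 11 lower, with a median of -0.04, while 20 of 29 histone genes rose. Of all probe sets 33.6% were called higher and 28.5% lower. At P15, against P7, 28 genes of the list were lower and 0 higher in limma, with a median of -0.84. Of all probe sets 13.6% were lower and 10.4% higher. At P56, against P21, 3 genes of the list were higher and 15 lower, with a median of -0.19. Of all probe sets 22.1% were higher and 34.3% lower. These last counts depended on the scale, as did those of all probe sets. With the medians at 0, 11 genes of the list were higher and 5 lower, with a median of 0.05. All 22092 probe sets then held 11028 higher and 4935 lower, with a median of 0.21. At an unadjusted p under 0.05, 0 genes of the list were higher at P15 than at P7, beside 3333 of all probe sets. The mean log2 signal of the list was 8.38, 8.26, 7.30, 7.12 and 6.95 at P0, P7, P15, P21 and P56. That of the histone genes was 7.74, 8.53, 8.31, 8.15 and 8.39 at the same ages.

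**Figure D4:**
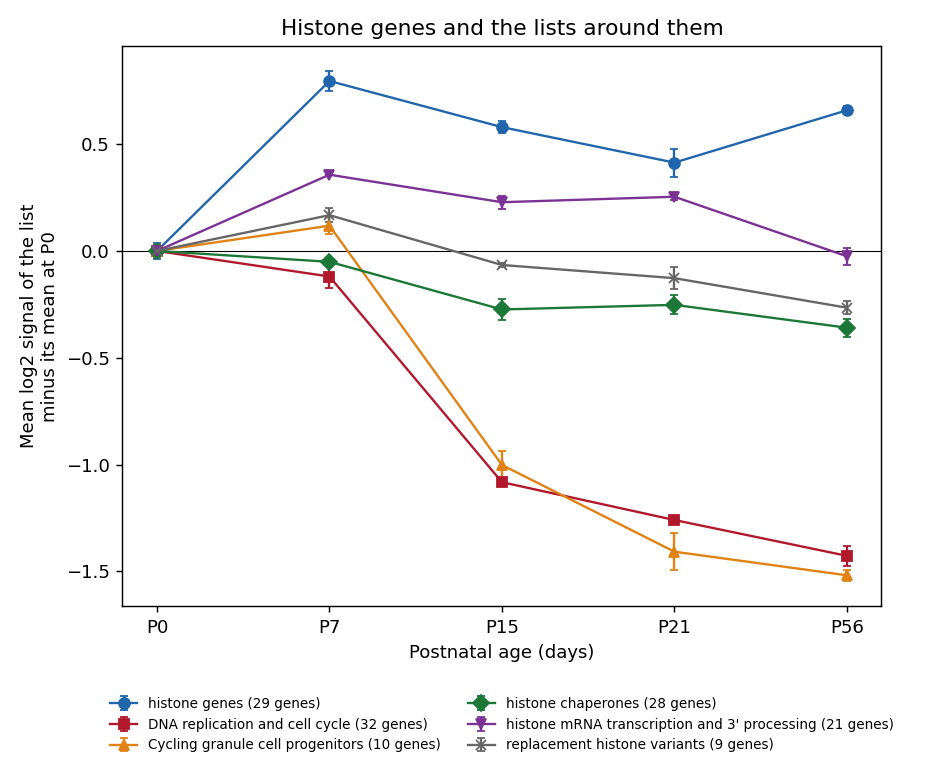
Mean log2 signal of 6 gene lists at 5 postnatal ages, minus the list's mean at P0, with bars of 1 SD over 3 arrays. The histone genes are above 0 at every later age, and the lists of DNA replication and of cycling granule cell progenitors lie more than 0.9 below 0 from P15 on.

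Slbp, of the list of histone mRNA factors, encodes the protein that binds the stem-loop of histone mRNAs. It had means of 9.03 ± 0.09 at P0, 9.81 ± 0.04 at P7, 9.74 ± 0.12 at P15, 9.59 ± 0.12 at P21 and 9.86 ± 0.17 at P56. It was 0.83 higher at P56 than at P0 (SE 0.09, adjusted p = 2.42e-07) and 0.78 higher at P7 (adjusted p = 6.23e-07). Over the 21 measured genes of the list, 8 were higher and 10 lower at P56 against P0, with a median of -0.20, while 40.1% of all probe sets were called higher and 35.3% lower. With the medians at 0 there were 10 higher and 5 lower, with a median of 0.12. All 22092 probe sets then held 13631 higher and 5800 lower, with a median of 0.41. As deposited, 13 of the 21 genes were higher and 3 lower at P7 against P0. At that age 33.6% of all probe sets were called higher and 28.5% lower. Lsm1, of the ring of proteins that starts mRNA decay, rose by 2.10 (SE 0.08, adjusted p = 6.94e-14), to 10.34 ± 0.08 at P56, against 8.24 ± 0.12 at P0. Ncbp1 of the cap-binding complex fell by 1.88, Cstf2 of the cleavage machinery by 1.46, and Cdk2, the kinase that acts on the histone gene activator Npat, by 1.39.

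Of 9 measured replacement variants, 4 were higher and 4 lower at P56 against P0, with a median of 0.09, beside 40.1% higher and 35.3% lower over all probe sets. With the medians at 0 there were 5 higher and 3 lower, beside 13631 and 5800 of all 22092 probe sets. Macroh2a2, a variant of H2A with a large extra domain, fell by 2.50 (SE 0.10, adjusted p = 2.77e-13), with means of 11.62, 10.89, 10.36, 10.06 and 9.12 from P0 to P56. H2aj, an H2A variant, rose by 1.02 (SE 0.10, adjusted p = 3.19e-08), H2az2, of the H2A.Z variants, fell by 0.94, and Cenpa, the H3 variant of centromeres, fell by 0.89. H2ax, the variant that is phosphorylated at DNA breaks, had means of 9.63 ± 0.21 at P56 and 9.34 ± 0.12 at P0 (change 0.29, adjusted p = 0.034). H2az1 and the H3.3 genes were not analysed here. Of 28 measured chaperone genes, 8 were higher and 16 lower at P56 against P0, with a median of -0.24. Over all probe sets 40.1% were called higher and 35.3% lower, with a median of 0.08. With the medians at 0, 11 chaperones were higher and 12 lower, with a median of 0.08. On that scale 13631 of all 22092 probe sets were higher and 5800 lower, with a median of 0.41. With quantile normalization 8 chaperones were higher and 15 lower (median -0.30), beside 8751 and 7479 of all (median 0.06). Chaf1b, of the complex that loads histones behind the replication fork, fell by 2.19 (SE 0.11, adjusted p = 3.49e-12), and Tonsl, Atrx and Nap1l1 fell by 1.94, 1.52 and 1.41.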

How the data were processed

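The authors deposited log2 signals per probe set on 15 arrays, made with Affymetrix Power Tools per the submitters' processing notes. Its algorithm and version were not stated in any source used here, and base 2 was read from the range of the values. Of 22092 probe sets, 20996 carried 1 symbol, 91 several and 1005 none in the platform annotation of 2016. All 29 histone symbols matched the RefSeq table. The deposited files give no background level, scan date or batch, so batch and age cannot be told apart.

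Differences were tested on all probe sets with limma 3.58.1 in R 4.3.3, with 1 mean for each age as the model (10 residual and 6.5 prior degrees of freedom). Tests were two-sided, Benjamini-Hochberg adjustment ran over all probe sets within a contrast, and a change was called at an adjusted p under 0.05. SE is that of the fit and SD is over 3 arrays. A list's summed level is the log2 of its summed unlogged signals. The code was tested on simulated data. Whether arrays of the same age stem from different pools of cerebella is not in the labels. If they do not, p-values measure only the spread between arrays. An exact permutation test of 3 against 3 arrays cannot go below 0.1.

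Histone genes, lists and tests were chosen with earlier results of these data known. Genes named with statistics were up to 4 called genes per class with the largest change at P56 against P0, and the 3 largest rises and falls between neighbouring ages, most of them with array values. Beyond this rule, other histone genes were given with changes and some with statistics, among them H4c4, H4c9 and H2bc9. In each other list up to 4 called genes with the largest change at P56 against P0 were named, along with Slbp, H2ax and Pcp2. Ppp1r17 and Atoh1 were picked after their values were seen. Replicate numbers did not pair the arrays: same-number deviations correlated at -0.31 to 0.45, and 25 of 30 such pairs were at or under 0.1. Alternatives covered normalization, centring, weights, the variance prior, a replicate block, a filter on dim probe sets, the choice of probe set, a minimum change and leaving out each array.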

Additional observations from a re-analysis of the deposited data

How the results depend on the processing

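Of 108 called changes of histone genes, 87 stayed called whichever of the 15 arrays was left out, and 21 did not in at least 1 such fit. Leaving out an array gave 19 to 22 higher and 4 to 5 lower genes at P56 against P0, 18 to 20 and 2 at P7 against P0, 2 to 3 and 7 to 11 at P15 against P7, 0 and 4 to 7 at P21 against P15, 15 to 16 and 5 to 6 at P56 against P21, 7 to 10 and 9 to 11 at P56 against P7, and 26 to 29 genes that differed between any ages. A replicate block moved no count of histone genes by over 1.5 times and ended none of their calls, though the numbers do not pair the arrays (6 of 15 arrays correlated best with their own number), and under it the 1 higher gene of the replication list at P56 against P0 was not called (0). With array medians at 0, the share of higher calls among all called probe sets was 70.2% (53.2% as deposited) at P56 against P0, 62.2% (43.3%) at P15 against P7, 45.9% (59.5%) at P21 against P15, 69.1% (39.3%) at P56 against P21 and 71.9% (42.5%) at P56 against P7, and 17 histone genes were higher at P56 against P7. That centring turned H2bc9 to 0.24 and H2bc21 to 0.022 at P56 against P0 and H4c4 to 0.081 at P56 against P7, and leaving out single arrays gave H3c15 changes of -0.0060 (without P56 replicate 3) to 0.33 at P56 against P0. Removing the dimmest 50% of probe sets left 16 of the 29 genes, of which all 16 differed between ages, with 11 higher at P56 against P0, 12 higher and 1 lower at P7 against P0, and 9 higher at P56 against P21. A minimum log2 change of 1 left 8 higher and 3 lower at P56 against P0, 9 and 0 at P7 against P0, 0 and 4 at P15 against P7, 0 lower at P21 against P15, 4 and 2 at P56 against P21, and 1 and 4 at P56 against P7. Array weights gave 5 higher genes at P15 against P7. In the other lists at P56 against P0, the dim filter left 2 higher variants, 10 lower chaperones, and 0 higher and 12 lower replication genes, and medians at 0 gave 5 lower processing factors and 3 higher replication genes. At P7 against P0 the dim filter left 7 lower chaperones and 2 higher and 3 lower replication genes. At P15 against P7 it left 10 lower replication genes and 2 higher chaperones, quantile normalization also gave 2 higher chaperones, and medians at 0 gave 2 higher chaperones and 1 higher variant. Leaving out an array gave 1 to 2 higher processing factors and 0 to 2 higher chaperones at P15 against P7 and 0 to 1 higher replication genes at P56 against P0. The fewer genes and higher bar explain the lower counts of the dim filter and the minimum change, and the causes of the other differences were not tested.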

Other observations

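Some histone genes lie head to head. The promoter windows of H2ac8 and H2bc8 shared 279 bases on opposite strands, and those of H2ac1 and H2bc1, both known from testis, shared 220 bases. At P56 against P0 the log2 changes were 0.26 for H2ac8 and 0.76 for H2bc8, and 0.29 for H2ac1 and 0.43 for H2bc1. At P7 against P0 they were 0.20 and 0.90 for H2ac8 and H2bc8, and 0.23 (adjusted p = 0.0839 in limma, not called) and 0.61 for H2ac1 and H2bc1. H2ac8 was below the lower quartile on every array.

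By position, 18 of the 22 genes on chromosome 13 were higher and 3 lower at P56 against P0, with a median change of 0.36, while 40.1% of all probe sets were called higher and 35.3% lower. Of the 4 genes on chromosome 3, 2 were higher (H2bc18 and H4c14) and 1 was lower (H2bc21), with a median of 0.84. At P15 against P7 the chromosome 13 genes held 3 higher and 8 lower, and none of the 4 genes on chromosome 3 was called, while 10.4% of all probe sets were called higher and 13.6% lower.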
